A study of Mus musculus with 48 samples.

Results

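Muscle macrophages were the cells that the authors' annotation called macrophages and that came from muscle samples. There were 274 such cells among 4565 annotated muscle cells (6.00%), and among 12096 annotated cells and 1331 macrophages of all organs. The study profiled single cells with Seq-Well, a method that captures cells in microwells and counts unique molecular identifiers (UMIs), each of which stands for 1 captured RNA molecule. All mice were male DBA1/J mice aged 8 to 12 weeks. CIA mice (S) had collagen-induced arthritis, induced with 100 µg of bovine type II collagen in complete Freund's adjuvant, given into the skin at the tail base, and boosted on day 20 with collagen in incomplete adjuvant. Healthy mice (H) received phosphate-buffered saline. Muscle came from 4 healthy and 6 CIA mice, and the pieces were frozen, thawed and digested with collagenase before capture.

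Macrophages are phagocytes that clear dead cells and microbes, present antigen on MHC class II molecules, and release cytokines. In skeletal muscle, resident macrophages lie in the connective tissue around the fibres and carry scavenger and lectin receptors such as *Lyve1*, *Folr2* and *Mrc1*, whereas recruited cells arise from blood monocytes that express *Ly6c2*, *Ccr2* and *Plac8*. Interferons raise antigen presentation and antiviral genes in both kinds of cell.

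The number of macrophages differed widely between mice. Healthy mice H3, H4, H6 and H7 gave 5, 15, 29 and 33 macrophages, and CIA mice S1, S2, S3, S5, S6 and S8 gave 9, 53, 19, 26, 84 and 1. Gene expression was compared between mice with at least 10 macrophages, that is H4, H6 and H7 against S2, S3, S5 and S6, with 259 cells. Their summed UMIs ran from 12559 to 110996 per mouse, so 1 UMI was worth between 79.6 and 9.01 CPM (the UMIs of a gene in each 1000000 macrophage UMIs of that mouse). The median macrophage had 817.5 UMIs, and 1 of the 274 had a barcode that was also found in another library. The arthritis score was 8 in S2 and S3, 4 to 5 in S5 and 3 to 4 in S6. S2 and S3 came from the experiment with the name prefix 2CIA, and the other 5 mice of the comparison from the experiment with the prefix CIA. Sample S6 stood apart in its make-up, since 1492 of its 1989 annotated cells were called myocytes. Cells with that label carried 16593, 12805 and 14952 CPM of the antigen presentation gene *Cd74* in H6, H7 and S6, and they were not used as a reference for muscle fibres here.

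The share of macrophages overlapped between the groups. It was 7.14%, 8.93%, 7.84% and 7.35% of annotated cells in H3, H4, H6 and H7. In S1, S2, S3, S5, S6 and S8 it was 20%, 7.69%, 10.9%, 7.47%, 4.22% and 0.382%, on both sides of the narrow healthy range. Means were 7.81% ± 0.798 (SD, n = 4) and 8.44% ± 6.69 (SD, n = 6), a difference of 0.623 percentage points (two-sided exact permutation test over 210 rearrangements, p = 0.876). Within the experiment CIA, with 3 healthy and 3 CIA mice, the difference was -4.01 points (two-sided exact permutation test over only 20 rearrangements, p = 0.200). Without S1, whose share was the highest, it was -1.69 points.

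**Figure D1:**
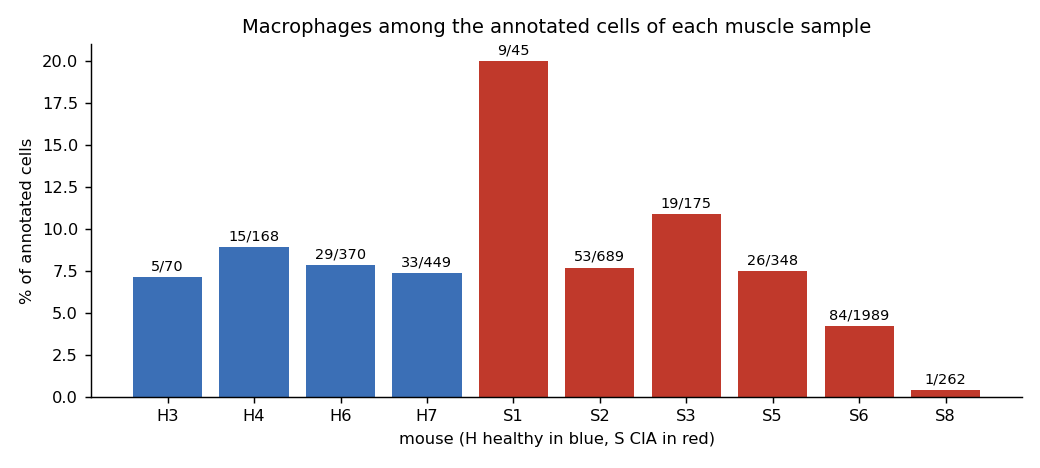
Share of annotated muscle cells called macrophages (%, vertical axis) in each of 10 mice (horizontal axis), with the macrophages and the annotated cells printed at each bar. The 4 healthy mice lie between 7.14% and 8.93%, and the 6 CIA mice between 0.382% and 20%.

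The label was checked against 5 markers. No test was made of them, because cells were annotated from their own transcripts. Shares of cells were counted after each cell was thinned to 400 UMIs, and muscle T cells served as the background, since they should lack these genes. Where no mouse is named, shares pool the cells of all 10 mice, among them H3, S1 and S8 with fewer than 10 macrophages. Median depth before thinning was 734 and 904 UMIs in macrophages of healthy and CIA mice and 552 and 588 in T cells. *Lyz2*, which encodes the bacteria-digesting enzyme lysozyme, was seen in 73.2% and 60.4% of macrophages of healthy and CIA mice, against 22.6% and 7.18% of T cells. Granulocytes also carried it, in 98.4% and 87.5% of cells.

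The other 4 markers were sparser. *Cd68*, a lysosomal membrane protein, was seen in 8.54% and 5.73% of macrophages against 1.43% and 0.643% of T cells. *F13a1*, the A chain of coagulation factor XIII, was seen in 13.4% and 5.73% against 0.286% and 0%. For the complement subunits *C1qb* and *C1qc* the macrophage shares were 6.10% and 3.66% in healthy mice and 10.9% and 7.81% in CIA mice, with at most 0.286% of T cells in either group. In these pooled shares all 5 markers were above their T cell background in both groups, but not in each mouse. *C1qb* was seen in 66.7% of the 9 macrophages of S1. In S2, S3, S5 and S6 it was seen in 9.43%, 10.5%, 11.5% and 5.95%, and in H4, H6 and H7 in 0%, 6.90% and 9.09%. *C1qc* was seen in no thinned cell of H4 and S3, and *F13a1* in none of H6 and S3. *Adgre1*, which encodes F4/80, had 4 UMIs in the 7 mice, *Csf1r*, the receptor for macrophage colony-stimulating factor, had 20, and *Mertk*, a receptor for dying cells, had none.

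**Figure D2:**
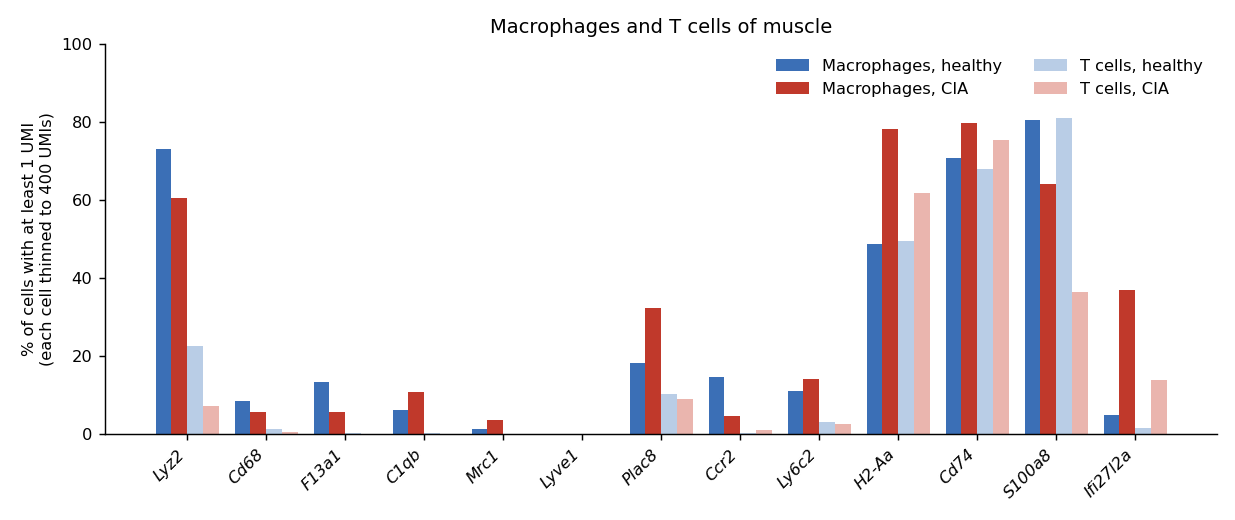
Share of cells with at least 1 UMI (%, vertical axis) for 13 genes in muscle macrophages and muscle T cells of healthy and CIA mice, each cell thinned to 400 UMIs. *Lyz2* and *Ifi27l2a* stand above the T cells in both groups, whereas *H2-Aa* and *S100a8* in healthy mice do not.

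The defining receptors of resident macrophages were near or below detection, while other genes of the same list were detected. Of 25 listed genes, all in the table, 6 had no UMI among the 277114 UMIs of the 7 mice, which allows a level of up to 10.8 CPM at 3 UMIs. They were *Lyve1*, a hyaluronan receptor, *Vsig4*, a complement receptor, *Stab1*, a scavenger receptor, *Ltc4s*, an enzyme of leukotriene synthesis, and the lectins *Cd209f* and *Cd209g*. *Folr2*, folate receptor beta, and *Timd4*, a receptor for dying cells, had 1 UMI each, in S5 and in S6, and *Cd163*, the haemoglobin scavenger receptor, had 3, all in S5. After thinning, any of *Lyve1*, *Folr2*, *Cd163*, *Mrc1* and *Timd4* was seen in 1.22% of macrophages of healthy and 4.17% of those of CIA mice, against 0% and 0.107% of T cells. These defining genes of resident cells were therefore not detectable, or barely so, at this depth.

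A mean of 50 CPM was reached by 8 genes of the resident list. Of these, the paper lists *F13a1* as a marker of monocytes as well as of macrophages. *Mrc1*, the mannose receptor, had 0, 47.8 and 60.4 CPM in H4, H6 and H7 and 78.8, 0, 112 and 54.1 CPM in S2, S3, S5 and S6. *F13a1* had 1079, 191 and 483 CPM in the healthy and 59.1, 159, 224 and 99.1 CPM in the CIA mice. *Selenop*, a selenium carrier, had 0, 0 and 453 CPM and 118, 0, 419 and 81.1 CPM in the same order of mice. All 3 genes overlapped between the groups. *Marcks*, an actin-binding protein, had 0, 143 and 121 CPM in healthy and 296, 159, 168 and 171 CPM in CIA mice, without overlap. The gap between H6 and S3 was smaller than the 79.6 CPM that 1 UMI was worth in S3, and *Marcks* had too few counts for the test. *Sparc*, a matrix protein, and *Pf4*, a chemokine, were highest in S5, at 1229.8 and 391 CPM, and each was at 0 in some mice of both groups. *Maf*, a transcription factor, had 9.01 to 90.6 CPM. *Ninj1*, a protein that ruptures the membrane of dying cells, was the 1 resident gene with enough counts for the test given below.

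Genes of recruited cells were found in every mouse. Of 31 listed genes, 30 were in the table, 24 reached a mean of 50 CPM and 10 were tested. *Ly6c2*, a surface antigen of blood monocytes, had 1002, 525 and 574 CPM in H4, H6 and H7 and 217, 239, 335 and 549.6 CPM in S2, S3, S5 and S6. *Ccr2*, the receptor that draws monocytes into tissue, had 154, 239 and 332 CPM in healthy and 138, 79.6, 139.8 and 162 CPM in CIA mice. *Plac8*, a small protein of monocytes, had 1156, 191 and 634 CPM in healthy and 1222, 1194, 1509 and 1414 CPM in CIA mice. The groups overlapped in *Ly6c2* and *Ccr2*, while *Plac8* was higher in each of the 4 CIA mice than in each of the 3 healthy mice. Outside the test this did not hold, since H3 had 1899.6 CPM from 12 UMIs and S1 137 CPM from 1 UMI. *Ly6c2*, *Ccr2* and *Plac8* were seen in 11%, 14.6% and 18.3% of macrophages of healthy mice, against 3.14%, 0.286% and 10.3% of T cells. In CIA mice the shares were 14.1%, 4.69% and 32.3% of macrophages and 2.57%, 0.965% and 9.11% of T cells. *Ly6c2* was not particular to the macrophages. In healthy muscle, granulocytes had 493 to 934 CPM of it and cells labelled dendritic cells 558 to 1448 CPM, beside 525 to 1002 CPM in macrophages. The summed level of the list was 17644, 13518 and 17270.5 CPM in healthy and 12986, 11864, 15177 and 13946 CPM in CIA mice.

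The main question was which genes differ between muscle macrophages of CIA and healthy mice. UMIs were summed per mouse and 545 genes with enough counts were tested with edgeR's quasi-likelihood test, with a call at a Benjamini-Hochberg adjusted p under 0.05. The test called 1 gene, *Ifi27l2a*, which is 0.183% of those tested, and 33 genes had an unadjusted p under 0.05, with 3.67% of those tested higher and 2.39% lower in CIA. In sums of this kind, fewer cells with a transcript and less of it per cell cannot be told apart. Each mouse was a separate animal.

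*Ifi27l2a*, a small membrane protein induced by interferon, rose in CIA. Its gene lies on the minus strand of chromosome 12 from 103442167 to 103443680 (GRCm38). It had 77.0, 95.5 and 121 CPM in H4, H6 and H7, from 1, 2 and 4 UMIs. In S2, S3, S5 and S6 it had 1714, 1672, 1789 and 775 CPM, from 87, 21, 64 and 86 UMIs. Each CIA mouse lay above each healthy mouse, and S6 was the lowest of the CIA mice. Means were 97.8 ± 21.9 CPM (SD, n = 3) and 1488 ± 478 CPM (SD, n = 4), with a log2 fold change of 3.92 (standard error 0.499, edgeR adjusted p = 0.00459). The call was lost in the experiment CIA alone (adjusted p = 0.0750), with a minimum of 20 cells per mouse (0.331), and without H4 (0.0652), H6 (0.0952) or H7 (0.0626), while over all alternatives the log2 fold change stayed between 3.66 and 4.2.

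The gene was seen in a part of the macrophages of each CIA mouse. After thinning it was found in 6.67%, 3.45% and 6.06% of macrophages of H4, H6 and H7. In S2, S3, S5 and S6 it was found in 39.6%, 36.8%, 53.8% and 32.1%, above each healthy mouse. Muscle T cells had it in 1.71% of cells of healthy and 13.9% of those of CIA mice. Their sums were 0, 54.5 and 70.2 CPM in H4, H6 and H7 and 568, 464 and 435 CPM in S2, S3 and S6, below the macrophages of the same mouse in each case. Muscle fibroblasts had 529, 229.6, 98.3 and 215 CPM in H3, H4, H6 and H7 and 1489, 1099, 804 and 1943 CPM in S1, S2, S5 and S6. These values did not overlap between healthy and CIA mice in T cells and fibroblasts either, and the part of free RNA in the macrophage values was not tested.

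Mice with fewer macrophages did not enter the test. S1, with 9 cells, had 10 UMIs of *Ifi27l2a* or 1373 CPM, within the range of the other CIA mice. H3, with 5 cells, had 0 of 6317 UMIs, which allows up to 475 CPM at 3 UMIs, and the single macrophage of S8 had none.

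**Figure D3:**
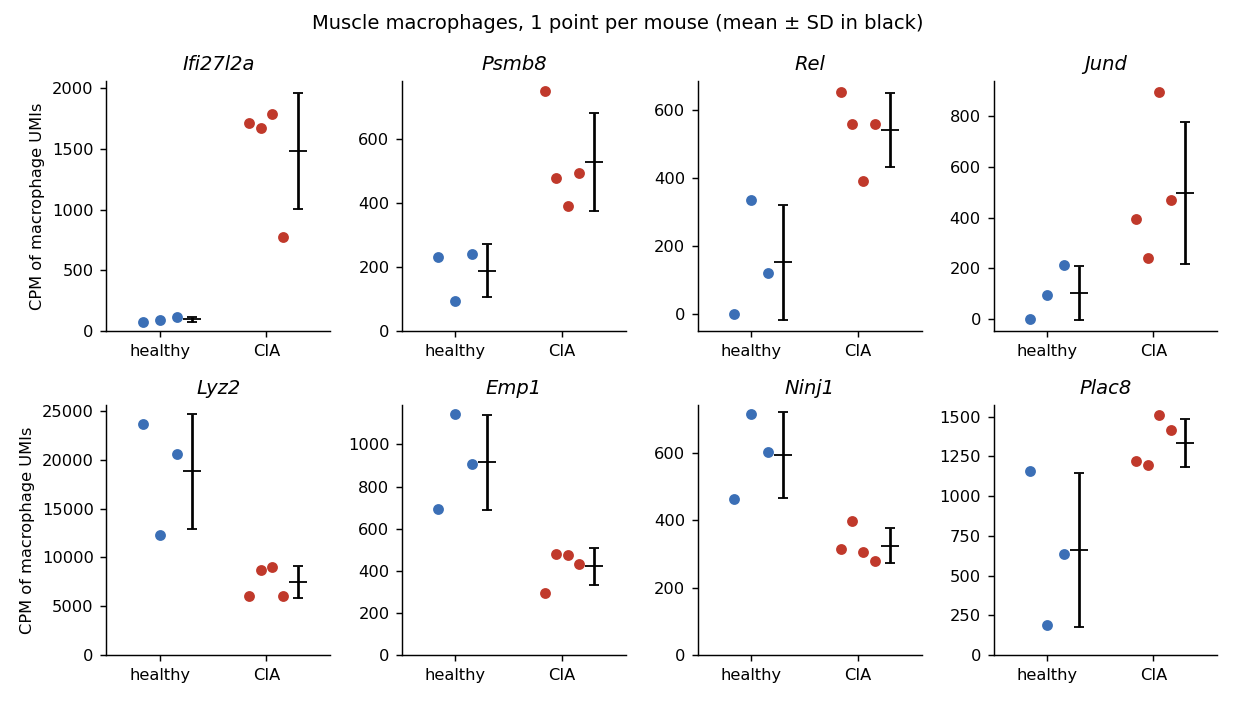
CPM (vertical axes) of 8 genes in muscle macrophages of 3 healthy and 4 CIA mice, 1 point per mouse with the mean and SD. The groups do not overlap in any of the 8 genes, and *Ifi27l2a* was the 1 gene past the adjusted threshold.

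Without overlap between the groups were 18 genes that were higher (3.3% of those tested) and 23 that were lower (4.22%) in CIA mice. Apart from *Ifi27l2a* none of them passed the adjusted threshold, and their values are a description. *Psmb8*, a catalytic subunit of the immunoproteasome, had 231, 95.5 and 242 CPM in H4, H6 and H7 and 749, 478, 391 and 496 CPM in S2, S3, S5 and S6 (log2 fold change 1.55, standard error 0.441, edgeR adjusted p = 0.672). *Rel*, a subunit of NF-kB, had 0, 334 and 121 CPM in healthy and 650.3, 557, 391 and 559 CPM in CIA mice, with a log2 fold change of 1.83. *Jund*, a subunit of the transcription factor AP-1, had 0, 95.5 and 211 CPM and 394, 239, 894 and 468 CPM, with a log2 fold change of 2.14. *Rel* and *Jund* were at 0 in H4, which had the fewest UMIs of the 3 healthy mice. Of the mice with fewer cells, H3 had 792 CPM from 5 UMIs of *Jund*, above S2, S3 and S6, and S1 had 0 UMIs of *Rel*, so for these 2 genes the separation does not extend to H3 and S1. For *Psmb8*, H3 had 158 CPM from 1 UMI and S1 824 CPM from 6 UMIs, on the same sides as the tested mice.

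The other 6 of the 10 higher genes with the smallest p have roles in respiration, splicing and protein handling, or none that is stated here. *Ndufa13*, a subunit of respiratory complex I, had 0 to 191 CPM in healthy and 387 to 478 CPM in CIA mice. *Atox1*, a copper chaperone, had 513 to 764 CPM and 811 to 1831 CPM, and *Calr*, a chaperone of the endoplasmic reticulum that helps to load MHC class I, 77.0 to 191 CPM and 239 to 459 CPM. *Snrpd3*, a core protein of the spliceosome, *BC005537* and *Sh3bgrl3* had log2 fold changes of 1.73, 1.27 and 0.98.

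Among the lower genes, *Lyz2* had the highest level. It had 23654, 12276 and 20562 CPM in H4, H6 and H7 and 6029.9, 8759, 9056 and 6009 CPM in S2, S3, S5 and S6. Means were 18830.4 ± 5883 CPM (SD, n = 3) and 7463 ± 1672 CPM (SD, n = 4), with a log2 fold change of -1.22 (standard error 0.464, edgeR adjusted p = 0.672, between -1.53 and -0.15 over the alternatives). S1, outside the test, had 27190.3 CPM, above all 7 mice, and H3 had 5541 CPM, below all 7. Other annotated muscle cells of the 7 mice had 3595 to 7005 CPM in healthy and 130 to 1878 CPM in CIA mice, also without overlap. Granulocytes of H4, H6 and H7 had 13095 to 20151 CPM. They numbered 47, 59 and 73 in these mice and 3, 4, 1 and 3 in S2, S3, S5 and S6. The part of granulocyte RNA in the macrophage values of *Lyz2* was not tested. *Emp1*, an epithelial membrane protein, had 693, 1146 and 906 CPM in healthy and 296, 478, 475 and 432 CPM in CIA mice (log2 fold change -1.02). *Ninj1* had 462, 717 and 604 CPM and 315, 398, 307 and 279 CPM (log2 fold change -0.83), and *Ubb*, a ubiquitin gene, had 8629 to 12372 CPM and 4964 to 6897 CPM. The other 6 of the 10 lower genes with the smallest p were *Rplp0*, a ribosomal protein gene, and *Gm16580*, *Gm5905*, *Gm4332*, *Gm14165* and *Rps19-ps3*, predicted genes or pseudogenes whose reads may be shared with near-identical copies, so that their values are uncertain.

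Genes of MHC class II presentation had the highest median change among the 15 lists with at least 3 tested genes. Of 9 genes listed, 6 were tested, 6 of them above 0 and 0 called, with a median log2 fold change of 1.23 beside 0.04 over all genes tested. DESeq2 called no gene of the list either, and 2 had an unadjusted p under 0.05. *H2-Aa* and *H2-Ab1*, the chains of the class II molecule I-A, were the most abundant beside *Cd74*. *H2-Aa* had 693, 4777 and 3593 CPM in H4, H6 and H7 and 11232, 3981, 3130.4 and 8820.1 CPM in S2, S3, S5 and S6. *H2-Ab1* had 770.5, 3487 and 2446 CPM in healthy and 8079, 2548, 2627 and 7216 CPM in CIA mice. In both genes H4 was the lowest and S2 and S6 were the highest mice, and the groups overlapped. The log2 fold changes were 1.27 (standard error 0.590, edgeR adjusted p = 0.723) and 1.30 (standard error 0.528, adjusted p = 0.672). *Cd74*, the invariant chain that guides class II molecules through the cell, had 848, 7786 and 6824 CPM in healthy and 12079.5, 3503, 5786 and 10388 CPM in CIA mice, with a log2 fold change of 0.74. *H2-DMa*, *H2-DMb1* and *H2-DMb2*, which form the chaperone that loads peptide, had 1.01, 1.20 and 1.58.

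Class II transcripts of other muscle cells varied between the same mice. T cells had 159.7, 7341 and 6238 CPM of *Cd74* in H4, H6 and H7 and 6441, 2733 and 5765 CPM in S2, S3 and S6, with H4 again the lowest. *Cd74* was seen in 70.7% and 79.7% of macrophages of healthy and CIA mice and in 68% and 75.5% of T cells. *H2-Aa* was seen in 48.8% and 78.1% of macrophages and 49.4% and 61.8% of T cells, so the healthy share lay at the background. In CPM, macrophages held more *H2-Aa* than all other annotated cells of the same sample in each of the 7 mice, by ratios from 1.17 in S6 to 33.7 in H4. Dendritic cell genes also varied between these mice, with a summed level of 154, 573 and 845 CPM in H4, H6 and H7 and 1596, 239, 447 and 1207 CPM in S2, S3, S5 and S6, lowest in H4 and highest in S2 and S6. After thinning, any of the 15 listed dendritic cell genes was seen in 6.67%, 17.2% and 18.2% of macrophages of H4, H6 and H7 and in 35.8%, 10.5%, 19.2% and 36.9% of those of S2, S3, S5 and S6, against 17.1% and 18.1% of T cells of healthy and CIA mice. The defining genes *Flt3*, *Zbtb46*, *Xcr1* and *Clec9a* had 5, 1, 4 and 1 UMIs in the 7 mice. *Flt3* and *Zbtb46* were at 0 in the 3 healthy mice. *Siglech*, another dendritic cell gene, was more abundant, with 77.0, 143 and 242 CPM in macrophages of H4, H6 and H7. In those of S2, S3, S5 and S6 it had 138, 0, 55.9 and 270 CPM. Summed T, B, endothelial and dendritic cells, fibroblasts, granulocytes and myocytes of muscle had at most 53.2 CPM of it. That value came from 1 UMI in T cells of H4, and cells labelled dendritic cells in H6 and H7 had none. The part of other cells and of their RNA in the class II values was not tested.

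Class II promoters share a short run, ATTGG or its complement CCAAT, within the Y box that the factor NF-Y binds. RefSeq promoters (GRCm38.p6, 250 bases before to 50 after the start) were at hand for 5 of the 9 listed genes, and 4 of them held the run on either strand, as did 37.4% of all 32851 promoters. *H2-Aa* (chr17:34287774-34288073, minus strand) is shown because the main fit given below called its response to CIA different from that in joint and lung. Both calls were lost in the fit with the mouse as a block. *H2-Eb1* (chr17:34305617-34305916, plus strand) is shown because it encodes a chain of the other class II molecule, I-E, and holds the run at 2 places. Capitals mark the run, 48 bases before the start in *H2-Aa* and 59 and 35 bases before it in *H2-Eb1*, and the sequences read 5′ to 3′.
H2-Aa: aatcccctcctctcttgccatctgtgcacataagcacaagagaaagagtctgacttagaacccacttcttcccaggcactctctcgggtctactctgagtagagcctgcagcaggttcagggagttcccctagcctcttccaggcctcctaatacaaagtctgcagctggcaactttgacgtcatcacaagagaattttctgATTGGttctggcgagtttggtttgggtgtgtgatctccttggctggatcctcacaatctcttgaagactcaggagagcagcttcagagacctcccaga
H2-Eb1: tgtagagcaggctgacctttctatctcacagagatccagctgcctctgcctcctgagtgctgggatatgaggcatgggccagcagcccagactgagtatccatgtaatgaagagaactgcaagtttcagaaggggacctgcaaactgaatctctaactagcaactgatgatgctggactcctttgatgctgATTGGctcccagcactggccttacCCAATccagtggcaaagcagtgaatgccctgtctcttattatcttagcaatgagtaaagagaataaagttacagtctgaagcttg
A match of letters is a description, and binding was not measured. *H2-Eb1* had 77.0, 143 and 60.4 CPM in H4, H6 and H7 and 315, 159, 55.9 and 243 CPM in S2, S3, S5 and S6, too few counts for the test.

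Interferon response genes were higher in CIA mice in sum. Of 38 listed genes, 5 were tested, all above 0 with a median log2 fold change of 0.85, and *Ifi27l2a* was the 1 called. The summed level of the list was 3005, 2770.5 and 2446 CPM in H4, H6 and H7 and 5931, 7564, 7882 and 5045 CPM in S2, S3, S5 and S6, without overlap, of which *Ifi27l2a* made up the amounts given above. *Slfn2*, which keeps immune cells quiescent, had 77.0, 191 and 332 CPM in healthy and 414, 637, 503 and 297 CPM in CIA mice (log2 fold change 1.04, edgeR adjusted p = 0.723). *Ifitm3* and *Ifitm2*, which hinder virus entry, had log2 fold changes of 0.85 and 0.66, with *Ifitm3* highest in S5 at 2040.4 CPM. None of the 16 genes of the list of interferon gamma GTPases and chemokines had enough counts for the test. In the MHC class I list, 6 of 15 genes were tested, with a median of 0.43, 0 called, and *B2m*, beta-2 microglobulin, at 0.66.

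Lists of inflammation, lysosome and metabolism held no called gene, and DESeq2 called no gene beside *Ifi27l2a*. Of 25 inflammatory cytokines and chemokines, 4 were tested, with a median of 0.44. *Cxcl2*, a neutrophil chemokine, had 1772, 1099 and 2204 CPM in healthy and 1025, 1274, 2376 and 838 CPM in CIA mice, and *Ccl2*, a monocyte chemokine, had 334 to 616 CPM and 236 to 1229.8 CPM. The groups overlapped in both. Of the lysosome list, 13 of 23 genes were tested, 8 of them below 0, with a median of -0.47. Its summed level was 32745, 26606 and 34994 CPM in H4, H6 and H7 and 18976, 23728, 20655 and 16145 CPM in S2, S3, S5 and S6, lower in CIA mice without overlap. Without *Lyz2*, its sum was 9092, 14330.1 and 14432 CPM and 12947, 14969, 11599 and 10136 CPM, and the groups overlapped. Its members went both ways, with *Ctsb*, a cysteine protease, at -0.47, *Ctss*, the protease that trims the invariant chain, at 0.72, and *Cst3*, a protease inhibitor, at 0.64. For iron handling, 3 of 12 genes were tested, all below 0, with *Hmox1*, the enzyme that breaks down haem, at -0.86 and the ferritin chains *Fth1* and *Ftl1* at -0.36 and -0.44. Of the lipid-associated and repair list, 5 of 24 were tested, all below 0, among them *Lgals3*, galectin-3, at -0.45 without overlap and *Apoe*, a lipid carrier, at -0.38.

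The remaining lists had medians near that of all genes or few tested members. The recruited list had a median of -0.29 over 10 genes, with *Plac8* at 1.17 (edgeR adjusted p = 0.692) and *Ly6c2* at -0.79 (adjusted p = 0.723). The macrophage core list summed to 28276, 17148 and 28865 CPM in healthy and 13203, 17039.6, 15037 and 10343 CPM in CIA mice, lower without overlap, and without *Lyz2* to 4623, 4872 and 8303 CPM and 7173, 8281, 5981 and 4333 CPM, with overlap. Its median was -0.28 over 7 genes, with *Cd14*, the co-receptor for lipopolysaccharide, at -0.79 and *Fcer1g*, a signalling chain of Fc receptors, at 0.15. *Fcer1g* was also the 1 gene tested of the complement and Fc receptor list. Immediate early genes, which also rise during tissue digestion, had 0.36 over 10 genes, with a summed level of 9246, 7595 and 8092 CPM in healthy and 8454, 6051, 15568 and 7766 CPM in CIA mice, highest in S5. The NF-kB feedback list had 0.33 over 3 genes, heat shock 0.02 over 4 and cell cycle 0.09 over 3. *Retnla*, a secreted protein of alternative activation, was the 1 gene tested of its list and was at 0 in H4, H7, S2 and S3. None of the alveolar macrophage, dendritic cell and glucocorticoid and metallothionein genes was tested.

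**Figure D4:**
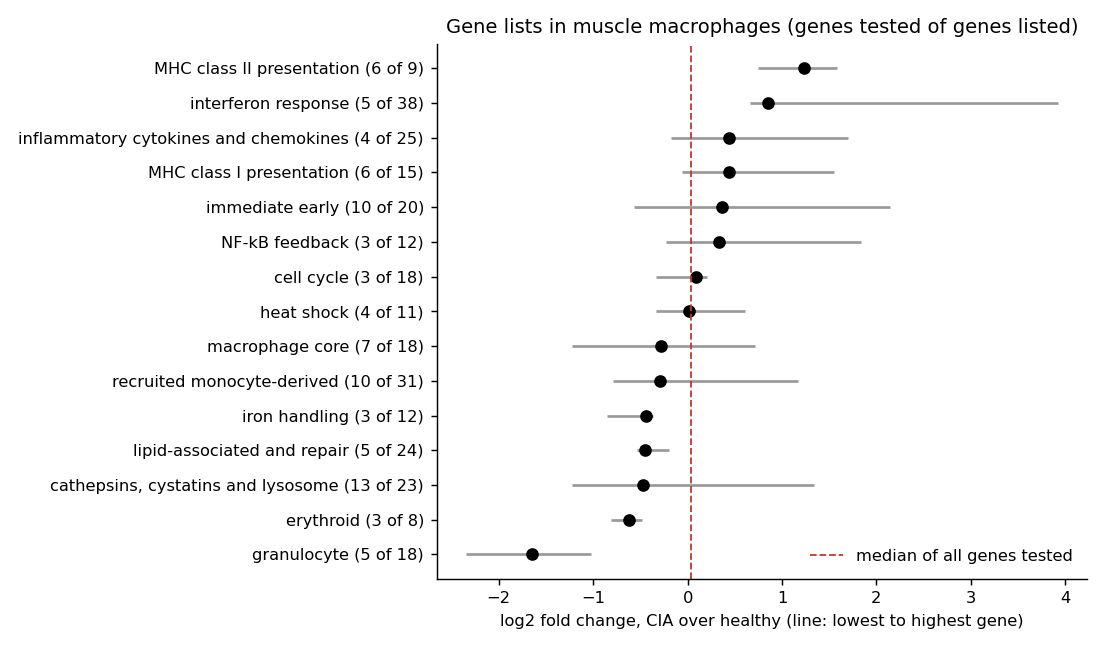
Log2 fold change of CIA over healthy mice (horizontal axis) for the 15 gene lists with at least 3 genes tested (vertical axis), the point giving the median and the line the lowest to the highest gene. MHC class II presentation has the highest median at 1.23 and granulocyte genes the lowest at -1.65, and the dashed line marks the median of all genes tested.

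Transcripts of other cells were present in the macrophage sums. The granulocyte list summed to 15409.5, 8120.4 and 42482 CPM in H4, H6 and H7 and 394, 2787, 15400.5 and 11586 CPM in S2, S3, S5 and S6, and 5 of 18 of its genes were tested, with a median log2 fold change of -1.65 and 0 called. *S100a8*, a calcium-binding protein of neutrophils and monocytes, had 8475, 4156 and 20471 CPM in healthy and 256, 2070.2, 9671 and 7180.4 CPM in CIA mice. It was seen in 80.5% of macrophages and 81.1% of T cells of healthy mice, and in 64.1% and 36.4% of those of CIA mice, so the healthy share was at the background. The other annotated cells of H4, H6 and H7 had 61789.5, 56745 and 50740.5 CPM, and those of S2, S3, S5 and S6 had 1835, 15866, 16068 and 15831 CPM, lower in each CIA mouse.

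Erythroid, B cell and fibroblast transcripts followed single mice. The erythroid list summed to 52778, 2436 and 15549.5 CPM in healthy and 118, 717, 44357 and 3180.3 CPM in CIA mice, high in H4 and S5. The B cell list summed to 385, 1385 and 11383 CPM and 1222, 6927, 419 and 16848 CPM, high in H7, S3 and S6, where *Igkc*, the constant region of the kappa light chain, made up most of it. Fibroblast genes summed to 770.5, 143 and 453 CPM and 197, 318, 8133 and 1324 CPM, with *Dcn*, decorin, at 2096 CPM in S5. Endothelial genes summed to 2157, 143 and 483 CPM and 98.5, 0, 2459.6 and 342 CPM. In each mouse the T cell, NK cell, skeletal muscle fibre and smooth muscle lists summed to at most 769 CPM each. Without S5, *Ifi27l2a* had a log2 fold change of 3.75 (edgeR adjusted p = 0.00903), and the part of these transcripts in the other comparisons was not tested.

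Muscle macrophages were then set against those of joint and lung in 1 fit of 24 samples and 913 genes, with 7 muscle, 7 joint and 10 lung samples of at least 10 macrophages. The joint samples came from H3, H4, H7, S1, S3, S5 and S8, and the lung samples from all 10 mice. Of the muscle mice, H6, S2 and S6 thus had no joint sample in the fit, so the comparison with joint rests in part on different animals. Several samples came from the same mouse, so the adjusted p with the mouse as a block is given beside the main one. The contrasts with joint and with lung share the muscle samples. The first question was whether the response to CIA differed between muscle and joint. It did for 22 genes (2.41%), 9 with a higher (0.986%) and 13 with a lower (1.42%) response in muscle, and with the mouse as a block for 2 and 5. With a minimum of 20 cells per sample, edgeR called 0 genes, 150 having an unadjusted p under 0.05, while DESeq2 with the main minimum called 9 and 11. Without H4 the counts were 0 and 6, without H7 0 and 1, and without H3 or S1 5 and 11. Without S3 or S8 there were 6 and 8 or 7 and 7.

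A higher response in muscle was called for some class II genes. Of the list, 7 genes were tested, with a median difference of 2.9 from joint and 2.42 from lung beside -0.01 and 0.02 over all genes, and 3 and 2 were called. The medians of *H2-Aa* in healthy and CIA mice were 3593 and 6401 CPM in muscle, 4383 and 1121 CPM in joint and 1868 and 922 CPM in lung. In joint, its level of 188 to 1564 CPM in CIA mice did not overlap that of 3727 to 5798 CPM in healthy mice. The difference of the log2 responses, muscle minus joint, was 3.36 (standard error 0.733, edgeR adjusted p = 0.0113, 0.0651 with the block, 0.101 without H4 and 0.0955 without H7). Against lung it was 2.67 (adjusted p = 0.0425, 0.108 with the block). *H2-Ab1* gave 3.29 against joint (adjusted p = 0.00967, 0.0921 with the block) and 2.42 against lung (0.0425 and 0.235). *Cd74* gave 2.89 against joint (0.0186 and 0.0938). The calls of these class II genes were thus all lost with the mouse as a block. *Cst3* differed from joint in the same direction, by 2.27 (0.0113 and 0.0635), as did *Rel*, by 2.79 (0.0490 and 0.0635). Other annotated cells had 20.6 to 7535 CPM of *H2-Aa* in muscle and 47.4 to 166 CPM in joint. Their medians of *Cst3* in healthy and CIA mice were 729 and 556 CPM in muscle and 7608 and 1223 CPM in joint. In joint macrophages the medians of *Cst3* were 4286 and 1058 CPM, and the part of other cells in these values was not tested.

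*Ly6c2* of the recruited list and *F13a1* had a lower response in muscle than in lung. *F13a1* stood on the resident list here, but the paper also lists it as a monocyte marker. Of the recruited list, 19 genes were tested, with a median difference of -1.28 from joint and -1.35 from lung, and 2 and 3 were called lower, none higher. *Ly6c2* had medians of 574 and 287 CPM in healthy and CIA mice in muscle, 24.2 and 845 CPM in joint and 4.81 and 442 CPM in lung. In lung its level was 0 to 32.6 CPM in healthy and 225 to 664 CPM in CIA mice, without overlap, and in joint 1 CIA sample, S3, lay within the healthy range. The difference of the log2 responses was -5.43 against joint (standard error 0.992, edgeR adjusted p = 0.00629, 0.0635 with the block) and -5.75 against lung (standard error 0.929, 4.31e-04 and 0.00830). Other annotated cells of muscle had 233 to 327 CPM of *Ly6c2* in healthy and 60.5 to 169 CPM in CIA mice, without overlap. Their medians were 148 and 416 CPM in joint and 0 in both groups in lung. The part of other cells in the macrophage values of *Ly6c2* was not tested. *F13a1* had medians of 483 and 129 CPM in muscle, 678 and 663 CPM in joint and 0 and 232 CPM in lung. Its response was lower in muscle than in lung by a log2 difference of -6.99 (standard error 1.10, edgeR adjusted p = 4.31e-04, 6.38e-04 with the block), a fitted value that depends on lung samples at 0. Against joint it was -1.88 (adjusted p = 0.265). The 2 differences from lung passed the threshold in each of 17 alternatives. In muscle alone, neither gene was called between CIA and healthy mice, *F13a1* having too few counts for that test.

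**Figure D5:**
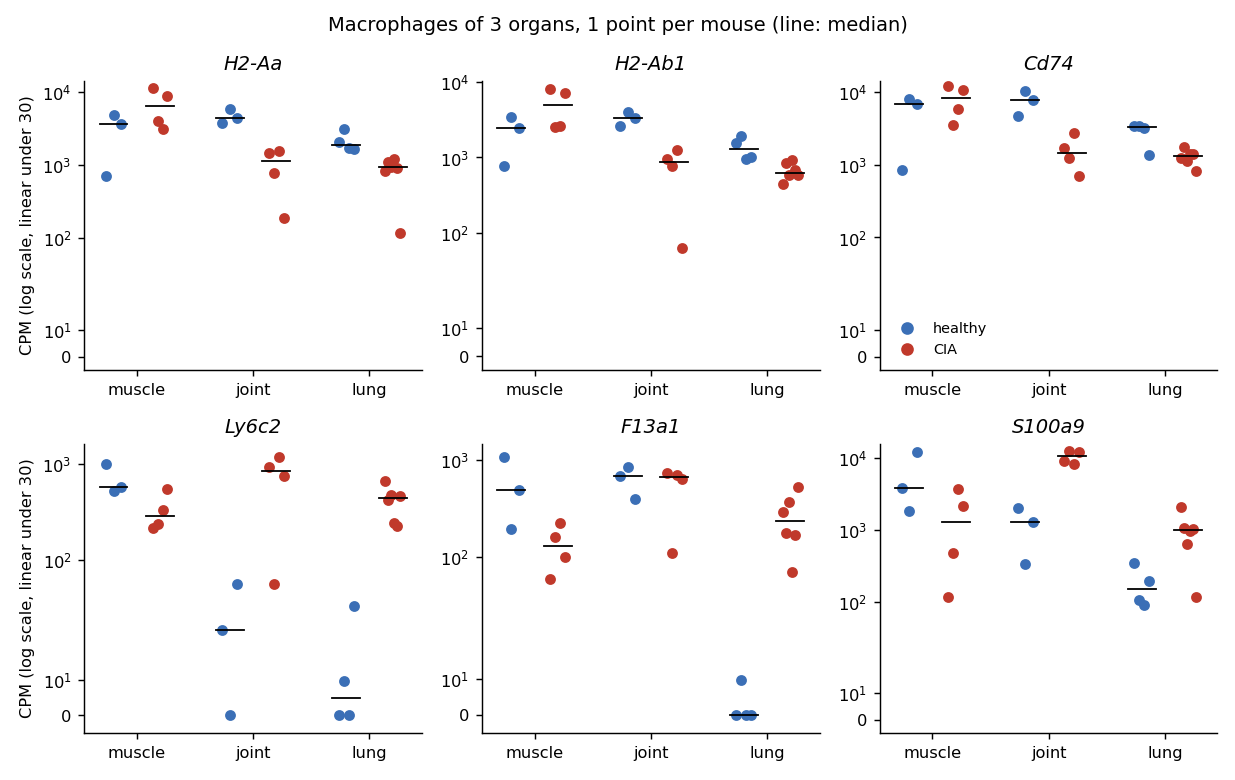
CPM (vertical axes, log scale above 30 and linear below) of 6 genes in macrophages of muscle, joint and lung of healthy and CIA mice, 1 point per mouse with the median as a line. *H2-Aa*, *H2-Ab1* and *Cd74* had lower medians in CIA than in healthy mice in joint and lung but higher ones in muscle, and *Ly6c2* and *S100a9* the reverse.

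Of the granulocyte list, 6 genes were tested, and 3 were called lower against joint and 2 against lung. *S100a9*, the partner of *S100a8*, had medians of 3852 and 1302 CPM in healthy and CIA mice in muscle, 1292 and 10517 CPM in joint and 151 and 1005 CPM in lung. The difference was -4.71 against joint (edgeR adjusted p = 0.0122, 0.00548 with the block) and -4.10 against lung (0.0425 and 0.0195). Other annotated cells moved the same way, with medians of 26273 and 5848 CPM in healthy and CIA muscle and 16348 and 44938 CPM in joint, and their part in the macrophage values was not tested. For *F13a1* the other cells of muscle had at most 27.4 CPM and those of lung 0. *Mgst1*, a glutathione transferase, *Mrpl33*, a mitochondrial ribosomal protein, and *Esd*, an esterase, differed from joint by -3.92, -2.87 and -2.76 (adjusted p = 0.0113, 0.00825 and 0.0113, with the block 0.0116, 0.0228 and 0.0665). *Dcn* differed by 7.03 (0.0131 and 0.0228) and had its highest muscle value in S5.

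Against lung, the response differed for 11 genes (1.2%), 4 with a higher (0.438%) and 7 with a lower (0.767%) response in muscle, and with the mouse as a block for 0 and 4. Without H3, H4 or H7 it differed for 0 and 2 each time, without S1 or S2 for 1 or 0 and 4, without S3 or S6 for 1 and 3, and without H6 for 5 and 12. Beside the genes above, *S100a8* differed by -5.19 (edgeR adjusted p = 0.0245, 0.0618 with the block), *Clec4e*, a receptor for mycobacterial glycolipid, by -3.68 (0.0245 and 0.0532) and *Npm1*, nucleophosmin, by 1.99 (0.0425 and 0.235).

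*Ifi27l2a* did not pass the test of a difference in response. Its medians in healthy and CIA mice were 95.5 and 1693 CPM in muscle, 84.0 and 1924 CPM in joint and 62.4 and 1135 CPM in lung. The difference was 0.34 against joint (standard error 0.862, edgeR adjusted p = 0.928) and -0.24 against lung (standard error 0.815, adjusted p = 0.974), which does not show that the responses were alike.

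Averaged over healthy and CIA mice, 15 genes differed between muscle and joint macrophages (1.64%), 7 higher (0.767%) and 8 lower (0.876%) in muscle, and with the mouse as a block 2 higher and 5 lower. Without S5 the counts were 26 higher and 60 lower, and without S6 2 higher and 2 lower. Without H3 or S1 they were 3 higher and 5 lower, without H7 3 higher and 7 lower, without H4 5 higher and 3 lower and without S2 5 higher and 4 lower. *C1qc* had 0 to 276 CPM in muscle and 125 to 1345 CPM in joint and was lower in muscle, with a log2 difference of -2.09 (standard error 0.455, edgeR adjusted p = 0.0144, 0.0166 with the block). *Lmna*, which encodes lamin A, *Cd9*, a tetraspanin, and *Crip1*, a zinc-binding protein, had log2 differences of -1.98, -1.62 and -1.39, all called with the block as well. *Igkc* was higher in muscle by 7.26 (adjusted p = 2.13e-04, 0.00285 with the block), with 83.9 to 13721 CPM in muscle and 0 to 62.7 CPM in joint. Other annotated cells had up to 5255 CPM of *Igkc* in muscle and up to 408 CPM in joint. *Map3k8*, a kinase of inflammatory signalling, was higher in muscle by 2.5 (adjusted p = 0.00428, 0.0390 with the block), and *Srsf11*, a splicing factor, by 1.34 (0.0249 and 0.246).

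Muscle and lung macrophages differed in 246 genes (26.9%), 133 higher (14.6%) and 113 lower (12.4%) in muscle, and with the mouse as a block in 103 higher and 91 lower. Without H7 the counts were 85 higher and 88 lower. With plain library sizes the split was 160 higher and 80 lower, the median log2 difference of all genes being 0.14 in place of -0.02. Of the called genes, 7 higher (0.767% of those tested) and 16 lower ones (1.75%) had no overlap between muscle and lung samples. *Sftpc*, *Sftpa1* and *Scgb1a1*, products of lung epithelium, were at 0 in all muscle samples, with medians of 20388, 2122 and 10023 CPM in lung. *Fabp1*, a lipid carrier of alveolar macrophages, was also at 0 in muscle and at 52.6 to 1205 CPM in lung, and *Ear2*, a ribonuclease of the same cells, had 0 to 79.6 CPM and 158 to 809 CPM. *Cd36*, a scavenger receptor for lipids, *Abcg1*, a cholesterol exporter, and *Ccl6*, a chemokine, were lower in muscle, with log2 differences of -3.65, -2.58 and -2.46 (edgeR adjusted p = 4.76e-06, 5.92e-06 and 6.2e-08). *Lst1*, a leukocyte membrane protein, was higher in muscle by 2.09 (adjusted p = 0.00227), with 151 to 391 CPM in muscle and 0 to 96.8 CPM in lung. Next to it came *Zfas1*, a host gene of small nucleolar RNAs, at 1.48, and the ribosomal protein gene *Rps21* at 1.20.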

How the data were processed

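Muscle macrophages of 10 mice were taken from the authors' annotation, with joint and lung macrophages for comparison. The deposited values are UMI counts per gene and cell, which the authors made with Drop-seq tools and STAR against GRCm38 from cells with at least 400 UMIs, 200 genes and under 20% mitochondrial UMIs. Cell names came from the authors' match to sorted reference populations and from marker genes. Against doublets, the study dropped cells above 6000 UMIs. No doublet caller was run here, and the 1 macrophage above that limit was kept and left out as an alternative.

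Counts were summed per mouse where at least 10 macrophages were present. They were tested with edgeR 4.0.16 (quasi-likelihood test, TMM factors, default filter on low counts, Benjamini-Hochberg adjustment at 0.05) in R 4.3.3, without covariates. The organ comparisons used 1 model with a mean for each organ and disease group. The share of macrophages was compared with an exact permutation test, and shares of cells with a UMI were described after thinning to 400 UMIs. The alternatives were DESeq2 1.42.0, limma 3.58.1, other factors, filters, cell minimums, batch terms, the mouse as a block, and leaving out each mouse. The batch terms were the experiment and red cell lysis, a preparation step that differed between the mice. The script was tested on simulated counts with the same spread for every gene. Between CIA and healthy muscle it recovered 0%, 77.2% and 98.5% of genes changed by a log2 of 1, 2 and 3. For the response against joint it recovered 0%, 32% and 83.5%. A list without called genes is therefore no evidence that its genes did not change. CPM levels use plain macrophage totals, whereas fold changes use TMM factors. Floors cover counting error only.

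Named genes were those called, the 10 higher and 10 lower non-overlapping genes of smallest p, resident and recruited genes with a mean of 50 CPM, up to 4 abundant genes of each other list, the 15 most abundant genes without ribosomal and mitochondrial ones, up to 10 called genes of each interaction by smallest p, the 10 higher and 10 lower non-overlapping called genes of each organ contrast, and the markers. *H2-Eb1*, *H2-DMb1*, *H2-DMb2*, genes at or near 0, the difference of *H2-Ab1* from lung, that of *Rel* from joint and called genes of the organ contrasts whose samples overlap were chosen after their values were seen. Members and lists were chosen with earlier results of these data known. The mouse numbers pair samples of several organs because they come from the same animal, and correlations of their deviations ran from -0.170 to 0.182 over 18 pairs.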

Additional observations from a re-analysis of the deposited data

Results flagged for a closer look

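In groups of 4 mice, 36 named genes had a CIA mouse far from the other 3 by Dixon's criterion among 153 groups checked, of which chance flags about 1 in 20. The values are CPM in muscle macrophages. S5 was the highest mouse for *Pf4* (391), *Sparc* (1229.8), *Fn1* (196), *Ifitm3* (2040.4), *Ier3* (615), *Socs3* (559), *Fabp4* (1957), *Hmox1* (1481), *Dusp1* (1146), *Hspa1a* (1174), *Mt2* (978), *Gzma* (55.9), *Gsn* (2404), *Dcn* (2096), *Col1a2* (643), *Acta1* (168), *Tnnc2* (168), *Acta2* (112), *Myl9* (28.0), *Hbb-bs* (36838), *Hba-a1* (5115), *Hbb-bt* (2348) and *Alas2* (55.9). These include haemoglobin and haem synthesis genes of red cells, matrix genes of fibroblasts and contractile genes of muscle. S6 was the highest for *Slpi* (1631), *Il7r* (81.1), *Ighm* (1189), *Iglc2* (595) and *Cd79b* (694), among them B cell genes, and the lowest for *Ifi27l2a* (775). S3 was the highest for *Clec4e* (398), *Igtp* (159) and *Gm42418* (16004) and the lowest for *Gm4332* (159) and *Hsp90ab1* (1115). S2 was the highest for *Marcks* (296) and *Il18rap* (19.7). *Gm42418* holds ribosomal RNA sequence.

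The response to CIA differed between muscle and joint by the interaction test in edgeR for *Ly6c2* (-5.43), *Mrpl33* (-2.87), *H2-Ab1* (3.29), *Cst3* (2.27), *Esd* (-2.76), *H2-Aa* (3.36), *Mgst1* (-3.92), *S100a9* (-4.71), *Dcn* (7.03) and *Cd74* (2.89), each value being the log2 response in muscle minus that in joint. Against lung it differed for *F13a1* (-6.99), *Ly6c2* (-5.75), *S100a8* (-5.19), *Clec4e* (-3.68), *Npm1* (1.99), *Gm15564* (2.25), *S100a9* (-4.10), *S100a4* (-2.20), *H2-Aa* (2.67) and *Ms4a6c* (-2.78) on the same scale. Positive values mean a higher response in muscle. Samples of several organs share a mouse, and with the mouse as a block the adjusted p stayed under the threshold against joint for *Mrpl33*, *Mgst1*, *S100a9* and *Dcn* and was 0.0635 to 0.0938 for the other 6. Against lung it stayed under it for *F13a1*, *Ly6c2* and *S100a9* and was 0.0532 to 0.235 for the other 7.

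Outside the tested mice, S1 with 9 macrophages had 1373 CPM of *Ifi27l2a*, above the 121 CPM of the highest healthy mouse.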

How the results depend on the processing

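Between CIA and healthy muscle, the count of 1 called gene was unchanged with DESeq2, other factors and minimums of 1 or 5 cells. It was also unchanged with the experiment or red cell lysis as a term. It was 0 in the experiment CIA alone and with a minimum of 20 cells, with 35 and 34 genes at an unadjusted edgeR p under 0.05, and 10 without a filter on low counts. Leaving out each mouse gave 0 to 1, with 0 without H4, H6 or H7. DESeq2 on all mice called 1. The log2 fold change of *Lyz2* was -0.15 with a minimum of 5 cells, which brings in H3 and S1. No paired analysis was possible for that comparison because each mouse was either healthy or had CIA.

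The genes higher in muscle than in joint numbered 3 with DESeq2, 4 with a minimum of 5 cells, 2 with the mouse as a replicate block and 2 to 26 when leaving out each mouse. The lower ones numbered 5 with the block, 15 without a filter and 2 to 60 when leaving out each mouse. Against lung, 68 were higher without a filter and 85 to 140 when leaving out each mouse.

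For the response against joint, higher ones numbered 0 with a minimum of 20 cells, 2 with the block and 0 to 10 without single mice, and lower ones 0, 7 with a minimum of 5 cells, 5 with the block and 1 to 15 without single mice. Against lung, higher ones numbered 2 with DESeq2, 1 with a minimum of 20 or 5 cells, 0 with the block or plain library sizes and 0 to 5 without single mice, and lower ones 2 with a minimum of 20 cells, 4 with the block and 2 to 12 without single mice. The causes were not tested. No called value changed sign among the genes followed over the alternatives, which for muscle against lung were 17 of the 246 called. By contrast, the difference in the share of macrophages, which was not called, went from 0.623 points to -1.69 without S1 and -4.01 in the experiment CIA alone. A few UMIs in healthy mice limit the precision of low genes.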
